A study of Mus musculus with 12 samples.

Results

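The genes described here are 9 members of the complement system: the receptor genes C3ar1, C5ar1, C5ar2 and Cd93, the regulator genes Cr1l, Cd55 and Cd59a, the properdin gene Cfp and the central component gene C3. They were chosen by name, as the rows of the deposited gene tables that carry these symbols, and all 9 were found among 24138 genes. The tables describe mouse intra-aortic haematopoietic clusters, the groups of cells in the wall of the embryonic aorta where blood stem and progenitor cells emerge. The aorta-gonad-mesonephros region of C57BL/6 embryos was the source, and SSEA-1-, CD31+ and CD117+ cells had been sorted. Of the 12 samples, 3 each were S/G2/M cells (mAG+, Fucci Green animals) at E11.5, G1 cells (mKO2+, Fucci Red animals) at E11.5, S/G2/M cells at E10.5 and G1 cells at E10.5. Phase therefore coincided with the reporter strain in each comparison of phases, and the effects of phase and strain cannot be told apart. Separate litters are not stated for the samples within a group, and how the authors' test used them is not stated either.

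Complement is a cascade of plasma proteins that tags and lyses targets. Its classical, lectin and alternative routes meet in the cleavage of C3, and later of C5, which releases the small peptides C3a and C5a. C3a acts through the receptor encoded by C3ar1, and C5a through those encoded by C5ar1 and C5ar2, the last of which does not couple to G proteins. Cells that carry such receptors include macrophages and neutrophils. Cr1l (Crry in the mouse) and Cd55 restrain the convertases that cleave C3, Cd59a blocks assembly of the membrane attack complex, and properdin stabilises the alternative convertase. Cd93 was first described as a receptor of C1q and is carried by endothelial cells and early blood progenitors.

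All 9 genes are protein-coding. In mm10, C3ar1 lies on chromosome 6 (122847140 to 122856157), C5ar2 and C5ar1 on chromosome 7 (16234585 to 16244154 and 16246743 to 16259540), and Cd93 on chromosome 2 (148436651 to 148443535), all on the minus strand. C5ar2 and C5ar1 are neighbours, with 2588 bases between them. Cd55 (130439030 to 130462740) and Cr1l (195103788 to 195131570) lie on the minus strand of chromosome 1. Cd59a lies on the plus strand of chromosome 2 (104095801 to 104115410), Cfp on the minus strand of chromosome X (20925535 to 20931524) and C3 on the minus strand of chromosome 17 (57203967 to 57228136). An antisense gene, Gm16083, overlaps exons of Cd55, and the small nuclear RNA gene Gm26473 overlaps an exon of C5ar2. No source used here says whether counting used strand, so reads of Cd55 and of Gm16083 cannot be told apart. Cd55b, a copy of Cd55, lies 16030 bases from it and was listed at 0 in all 4 groups.

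The 250 bases before the start are shown for 3 receptor genes, since they encode the receptors of C3a and C5a and C5ar2 is the neighbour of C5ar1. Sequences are RefSeq's (GRCm38.p6), read 5′ to 3′ along the gene's minus strand, and 8 of the 9 genes were matched, all but Cd93. Capitals mark GAGGAA, as bound by Spi1, TGTGGT, as bound by Runx1, and AGATAA, as bound by Gata factors, on either strand.
C3ar1, chr6:122856158-122856407: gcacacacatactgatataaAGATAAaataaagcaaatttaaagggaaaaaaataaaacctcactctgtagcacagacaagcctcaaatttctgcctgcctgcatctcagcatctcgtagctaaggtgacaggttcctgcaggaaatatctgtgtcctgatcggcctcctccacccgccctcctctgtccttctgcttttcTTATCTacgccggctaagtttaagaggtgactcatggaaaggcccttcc
C5ar1, chr7:16259339-16259588: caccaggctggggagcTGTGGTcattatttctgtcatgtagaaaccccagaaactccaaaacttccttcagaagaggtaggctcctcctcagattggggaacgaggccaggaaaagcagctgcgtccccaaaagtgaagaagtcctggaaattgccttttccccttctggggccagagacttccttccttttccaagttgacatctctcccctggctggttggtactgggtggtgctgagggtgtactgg
C5ar2, chr7:16244155-16244404: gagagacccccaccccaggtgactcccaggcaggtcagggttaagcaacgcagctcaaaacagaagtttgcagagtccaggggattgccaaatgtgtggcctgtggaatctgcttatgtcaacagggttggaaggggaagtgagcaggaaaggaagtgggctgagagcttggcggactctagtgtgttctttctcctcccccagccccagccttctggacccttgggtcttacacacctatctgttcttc

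The C3ar1 window held AGATAA as written and once as its reverse complement TTATCT, the C5ar1 window held TGTGGT, and the C5ar2 window held none of the 3 motifs. No matches overlapped in these windows. Over the matched genes, 2 of 8 held GAGGAA, 2 held TGTGGT and 1 held AGATAA, counting the second listed start of C5ar2. Among 32851 windows of the same length, the shares were 23.3%, 14.0% and 9.99%. The start of C5ar1 in the GENCODE annotation lies inside the C5ar1 window, since RefSeq's start is placed differently. A match describes letters only.

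Each group stands in 3 of the 6 deposited tables, and the values below are the authors' group values in FPKM, a level scaled to gene length and library size. The range over tables shows how a value moved between tables and not the spread between samples. For each of the 9 genes and each group, except C5ar2 at E11.5, the highest of the 3 values was within 1.1 times the lowest. Cd93 had the highest level of the 9 genes in every group, and C3 the lowest. Cd93 stood above 97.0% of the genes listed above 0 in E11.5 G1 cells and above 93.1% of them in E10.5 G1 cells. C3ar1 took the second place in E11.5 G1 cells, the third in both S/G2/M groups, and stood behind Cr1l and Cd59a in E10.5 G1 cells.

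**Figure D1:**
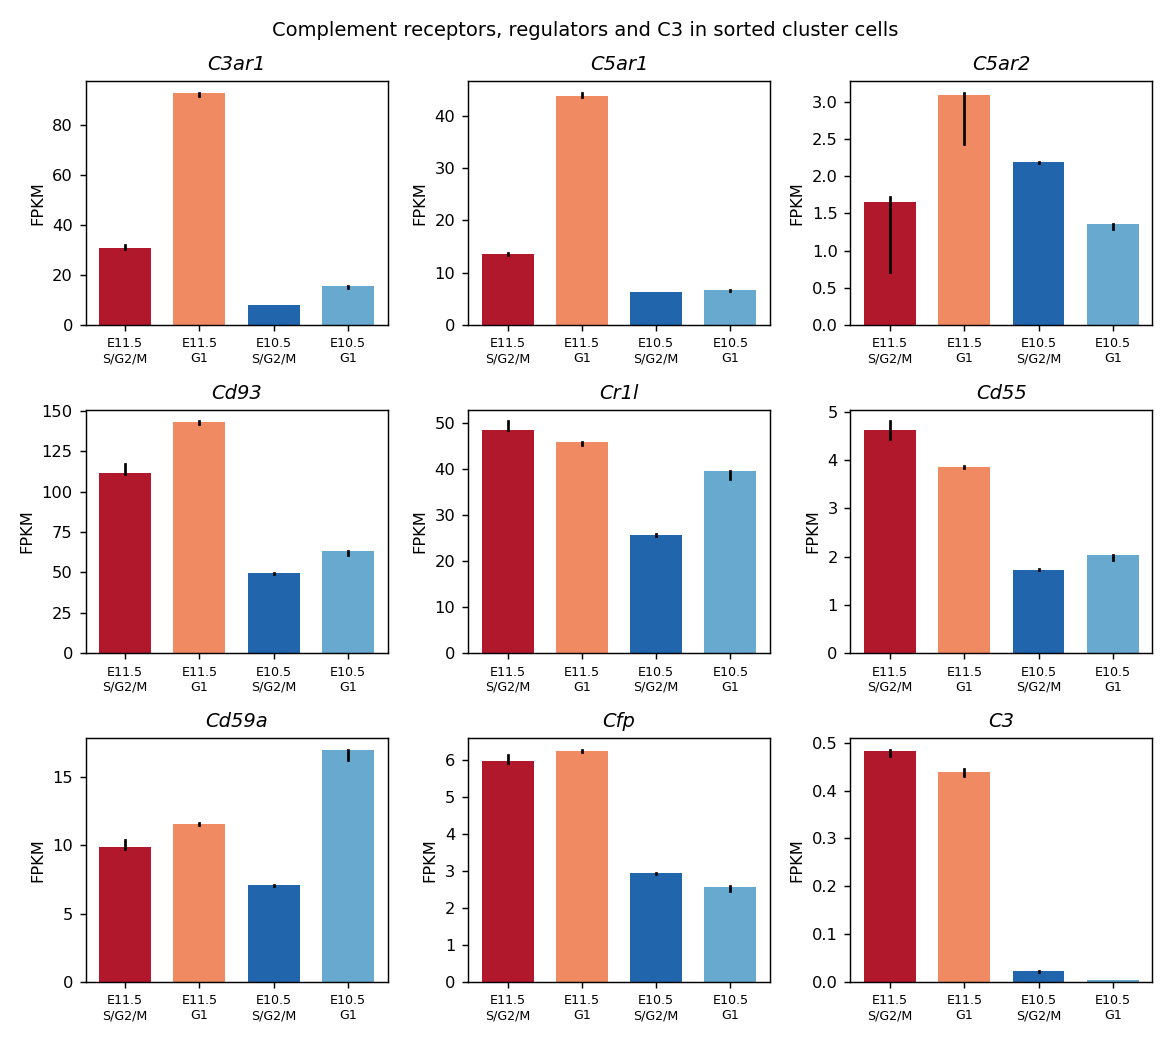
Level in FPKM of each of the 9 genes in the 4 groups, on linear axes from 0; bars give the median of the 3 deposited tables that hold a group and black lines the lowest and highest of them, not the spread between samples. C3ar1 and C5ar1 stood far higher in E11.5 G1 cells than in the other groups, while Cr1l and Cd59a varied less, and C5ar2 at E11.5 moved with the table.

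C3ar1, the C3a receptor gene, rose with age in both phases. In S/G2/M cells it had 32.1 FPKM at E11.5 and 7.75 FPKM at E10.5, a 4.14-fold rise, and the authors' deposited table gave q = 0.00308. In G1 cells it had 93.1 FPKM at E11.5 and 14.9 FPKM at E10.5, a 6.22-fold rise, and the authors' deposited table gave q = 0.00273. C3ar1 and Cd93 were the 2 genes that passed among the 8 tested, both upward and in both phases. Of all tested genes, 4.07% passed in either direction in S/G2/M cells and 4.45% in G1 cells.

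Between phases at E11.5, C3ar1 had 30.9 FPKM in S/G2/M cells and 91.8 FPKM in G1 cells, a log2 fold change of -1.57, and the authors' deposited table gave q = 0.0546. The pair of groups was deposited a second time with its columns exchanged. That authors' deposited table gave 30.5 FPKM in S/G2/M cells, 92.9 FPKM in G1 cells and q = 0.0209. The call at a q under 0.05 thus depended on the table, while the authors marked C3ar1 as significant in both. At E10.5, C3ar1 had 7.89 FPKM in S/G2/M cells and 15.5 FPKM in G1 cells (log2 fold change -0.98), and the authors' deposited table gave p = 0.0290 and q = 0.635. From high to low, its groups were E11.5 G1, E11.5 S/G2/M, E10.5 G1 and E10.5 S/G2/M. The neighbours E11.5 S/G2/M and E10.5 G1 were compared in no table.

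C5ar1 followed the same broad order but passed in no comparison at a q under 0.05. In S/G2/M cells it had 13.7 FPKM at E11.5 and 6.23 FPKM at E10.5 (log2 fold change 1.14), and the authors' deposited table gave p = 0.03035 and q = 0.279. In G1 cells it had 44.4 FPKM at E11.5 and 6.47 FPKM at E10.5. This log2 fold change of 2.78 was the largest of the 8 tested genes in that comparison, yet the authors' deposited table gave p = 0.0819 and q = 0.415. At E11.5 it had 13.3 FPKM in S/G2/M cells and 43.9 FPKM in G1 cells (log2 fold change -1.73), and the authors' deposited table gave q = 0.0633, against 0.0794 with the columns exchanged. The authors marked C5ar1 as significant in both. At E10.5 the levels lay close together, with 6.35 FPKM in S/G2/M cells and 6.72 FPKM in G1 cells. C3ar1 had 2.29 times the FPKM of C5ar1 in E11.5 S/G2/M cells, 2.12 times in E11.5 G1 cells, 1.25 times in E10.5 S/G2/M cells and 2.32 times in E10.5 G1 cells.

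C5ar2, beside C5ar1 on the chromosome, stayed under 4 FPKM and passed in no comparison. At E10.5 it had 2.19 FPKM in S/G2/M cells and 1.35 FPKM in G1 cells (log2 fold change 0.70; authors' deposited table, q = 0.969). At E11.5 it had 1.66 FPKM in S/G2/M cells and 3.10 FPKM in G1 cells (log2 fold change -0.90; authors' deposited table, q = 0.816). The sign thus differed between the ages, but neither difference passed. In the deposited table of the other order, its E11.5 values were 0.706 FPKM in S/G2/M cells and 2.43 FPKM in G1 cells. Over the 3 tables that hold a group, C5ar1 had 7.94 to 19.1 times the FPKM of C5ar2 in E11.5 S/G2/M cells, 14.2 to 18.0 times in E11.5 G1 cells, 2.86 to 2.89 times in E10.5 S/G2/M cells and 4.95 to 5.01 times in E10.5 G1 cells. The ranges of both E11.5 groups overlap.

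Cd93 rose with age by nearly equal amounts in both phases. It had 117 FPKM at E11.5 and 48.9 FPKM at E10.5 in S/G2/M cells, a 2.39-fold rise, and the authors' deposited table gave q = 0.0116. In G1 cells it had 144 FPKM at E11.5 and 60.5 FPKM at E10.5, a 2.37-fold rise, and the authors' deposited table gave q = 0.0415. Between phases its log2 fold change was -0.34 at E11.5 (112 FPKM in S/G2/M cells and 142 FPKM in G1 cells) and -0.35 at E10.5 (49.6 FPKM in S/G2/M cells and 63.1 FPKM in G1 cells), and neither passed in the authors' deposited tables (q of 0.871 and 0.943).

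None of the 3 membrane regulators passed in any comparison. Cr1l, the most abundant of them, had 50.5 FPKM at E11.5 and 25.5 FPKM at E10.5 in S/G2/M cells, and the authors' deposited table gave p = 0.0101 and q = 0.143. In G1 cells it had 45.9 FPKM at E11.5 and 37.8 FPKM at E10.5, with a log2 fold change of 0.28. Its level was lowest in E10.5 S/G2/M cells, where it had 25.8 FPKM against 39.5 FPKM in E10.5 G1 cells (log2 fold change -0.62). At E11.5 it had 48.5 FPKM in S/G2/M cells and 45.4 FPKM in G1 cells.

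Cd55 was higher at E11.5 in both phases. In S/G2/M cells it had 4.80 FPKM at E11.5 and 1.72 FPKM at E10.5 (log2 fold change 1.48). For this difference the authors' deposited table gave p = 0.0319 and q = 0.286. In G1 cells it had 3.87 FPKM at E11.5 and 1.93 FPKM at E10.5 (log2 fold change 1.0), where the authors' deposited table gave q = 0.534. Its phase differences were 0.27 at E11.5 and -0.23 at E10.5 on the log2 scale. Cr1l had 10.51 to 19.5 times the FPKM of Cd55 over the 4 groups.

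Cd59a had its highest level in E10.5 G1 cells. At E10.5 it had 7.07 FPKM in S/G2/M cells and 17.0 FPKM in G1 cells (log2 fold change -1.27), and the authors' deposited table gave p = 0.0342 and q = 0.656. At E11.5 it had 9.90 FPKM in S/G2/M cells and 11.497 FPKM in G1 cells. Its age difference was 0.57 in S/G2/M cells and -0.49 in G1 cells on the log2 scale, and it was the only 1 of the 8 tested genes that was lower at E11.5 in G1 cells. Cd59b, the related gene 10843 bases away, had a median over tables of 1.03 FPKM in E11.5 S/G2/M cells, was listed at 0 in E11.5 G1 cells, and had 0.201 FPKM in E10.5 S/G2/M cells and 1.36 FPKM in E10.5 G1 cells. No source used here says how reads shared by the pair were counted.

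Cfp, which encodes properdin, had 6.14 FPKM at E11.5 and 2.92 FPKM at E10.5 in S/G2/M cells and 6.29 FPKM at E11.5 and 2.47 FPKM at E10.5 in G1 cells, with q of 0.627 and 0.568 in the authors' deposited tables. Phases lay within 0.2 of each other on the log2 scale at both ages. C3, the source of C3a, stayed under 0.5 FPKM throughout and was not tested by the authors. Its level was 0.486 FPKM at E11.5 and 0.0211 FPKM at E10.5 in S/G2/M cells, and 0.446 FPKM at E11.5 and 0.00434 FPKM at E10.5 in G1 cells. Hc, which encodes C5, the source of C5a, was listed at 0 in all 4 groups.

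Between phases, no gene of the 8 tested passed at a q under 0.05 at either age in the authors' test (Cuffdiff, per the submitters' processing notes). Of all tested genes, 0.701% passed at E11.5 and 0.655% at E10.5. By unadjusted p under 0.05, the authors' deposited tables held 2 of the 8 at E11.5, C3ar1 and C5ar1, against 8.27% of all tested genes, and 2 at E10.5, C3ar1 and Cd59a, against 6.69%. The authors' own mark of significance reached a q near 0.085, below which lay 0.894% of all tested genes at E11.5, C3ar1 and C5ar1 among them. With the columns exchanged, the authors' deposited tables called 1 gene at E11.5, C3ar1, against 0.648% of all tested genes, and 0 at E10.5, against 0.701%. The median log2 fold change of the 8 genes was -0.28 at E11.5 and -0.29 at E10.5, beside -0.062 and -0.035 over all tested genes. With age it was 1.11 in S/G2/M cells and 1.26 in G1 cells, beside 0.029 and 0.020 over all tested genes. By unadjusted p under 0.05 (authors' deposited tables), 5 of the 8 were higher at E11.5 in S/G2/M cells and 2 in G1 cells. Among all tested genes, 995 of 12768 were higher and 778 lower by that p in S/G2/M cells. In G1 cells, 1161 of 12953 were higher and 840 lower. Comparisons of phases and of ages share groups. Whether a phase difference itself differed between ages could not be tested from group values.

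**Figure D2:**
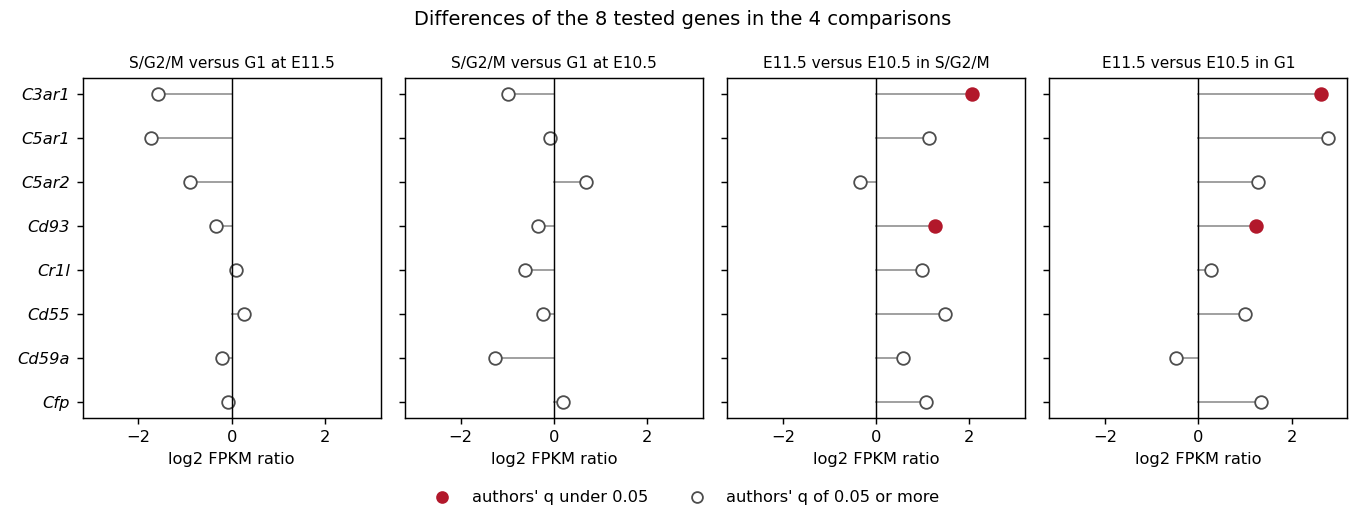
Log2 ratio of FPKM, S/G2/M over G1 and E11.5 over E10.5, for the 8 tested genes; filled points passed at a q under 0.05 in the authors' deposited tables and open points did not. C3ar1 and Cd93 are the only filled points, both in the comparisons of age, and C5ar1 in G1 cells shows a larger ratio that did not pass.

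Among 47 other complement genes, most were at or near 0: 25 were listed at 0 in E11.5 S/G2/M cells, 21 in E11.5 G1 cells, 20 in E10.5 S/G2/M cells and 22 in E10.5 G1 cells, by the median over tables. At least 1 FPKM was reached by 12 of them in E11.5 S/G2/M cells, 15 in E11.5 G1 cells, 14 in E10.5 S/G2/M cells and 15 in E10.5 G1 cells. Among these were the C1q chain genes, the integrin genes Itgam and Itgb2 that form complement receptor 3, the C1 inhibitor gene Serping1, and Calr and C1qbp, which also act outside complement. With age, 2 of the 16 tested in S/G2/M cells and 5 of the 17 tested in G1 cells rose, and none fell in either phase. Among all tested genes, 273 of 12768 rose and 247 fell in S/G2/M cells, and 389 of 12953 rose and 188 fell in G1 cells. Itgam rose 13.2-fold and Itgb2 5.33-fold in G1 cells, whereas neither passed in S/G2/M cells.

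C1qb and C1qc, chains of the protein that starts the classical route, rose in both phases, by 3.08-fold and 4.37-fold in S/G2/M cells and by 8.05-fold and 8.40-fold in G1 cells. C1qa rose in G1 cells, with 108 FPKM at E11.5 and 7.08 FPKM at E10.5. Between phases at E11.5, 3 of 16 tested fell in S/G2/M cells, C1qa, C1qb and C1qc, against 70 of 12414 among all tested genes. At E10.5 none of 17 passed, with 1 at p under 0.05 before adjustment (authors' deposited table). Of all tested genes, 6.69% lay under that p at E10.5. C2, C4a and C4b, which encode the next components of the classical route, did not exceed 0.6 FPKM in any group. Cfb, the alternative convertase gene, reached 5.15 FPKM in E11.5 G1 cells and 1.27 FPKM in E10.5 G1 cells. Of the 7 genes of the terminal complex, C8g alone reached 1 FPKM, in E10.5 S/G2/M cells.

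**Figure D3:**
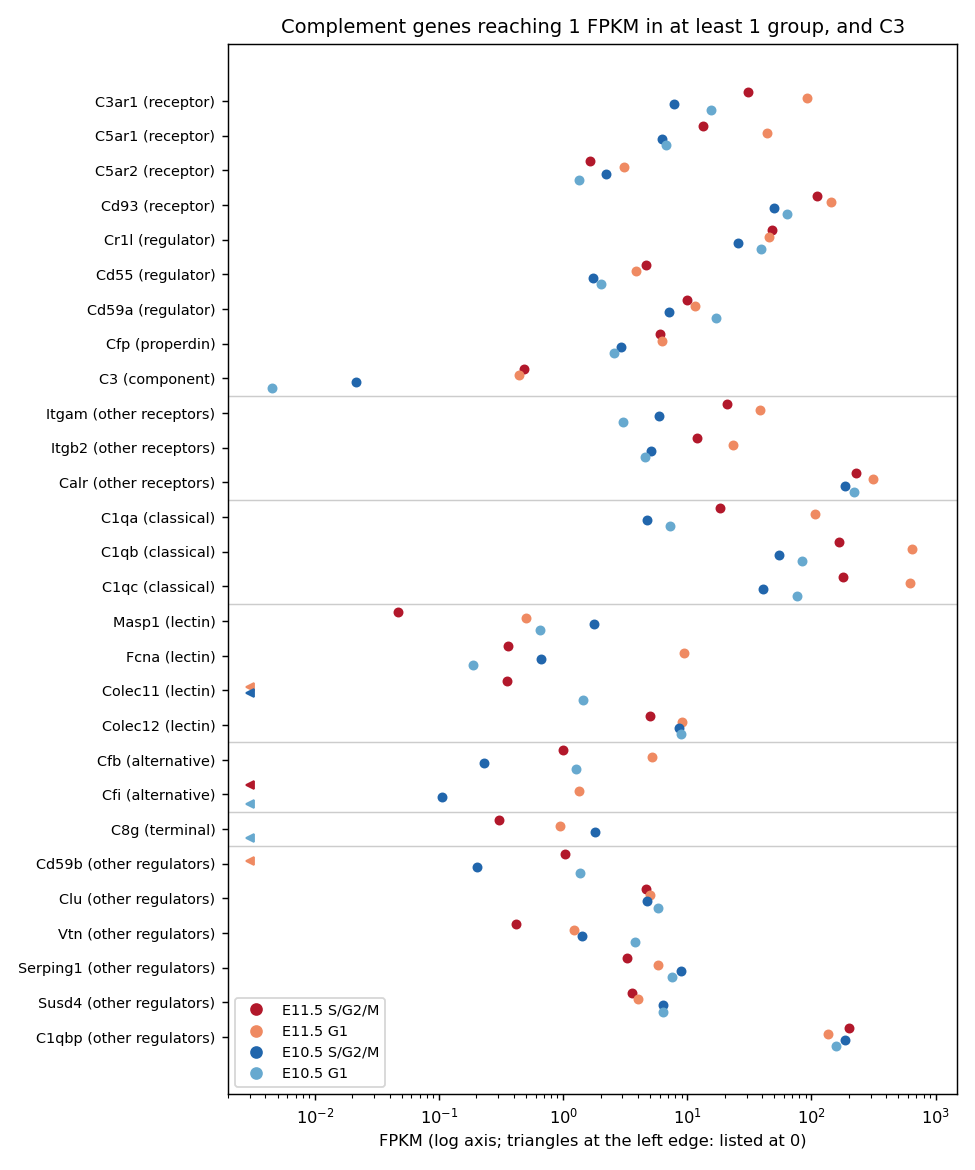
Level in FPKM, on a log axis, of the 9 genes and of the other complement genes that reached 1 FPKM in a group, ordered by role; each point is the median of the 3 tables that hold a group, and triangles mark genes listed at 0. The C1q chains, Itgam, Itgb2, C3ar1 and C5ar1 had their highest level in E11.5 G1 cells. So did Cd93, C5ar2, Cfp, Calr, Cfb, Cfi, Fcna and Colec12. C3 lies at the low end.

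The medians of macrophage markers had the sign of C3ar1 and C5ar1 in every comparison. The medians of endothelial markers, given below, had these signs too, and so did Cd93. C5ar1 changed less than the macrophage medians between phases at E10.5 and with age in S/G2/M cells. The summed level of 20 macrophage markers was 1432 to 1500.4 FPKM in E11.5 S/G2/M cells, 3298 to 3363 FPKM in E11.5 G1 cells, 391 to 397 FPKM in E10.5 S/G2/M cells and 583 to 608 FPKM in E10.5 G1 cells, as ranges over tables. With age, 10 of the 18 tested in S/G2/M cells and 15 of the 20 tested in G1 cells rose, against 273 of 12768 and 389 of 12953 among all tested genes. At E11.5, 4 of 20 fell in S/G2/M cells relative to G1 cells, against 70 of 12414 among all tested genes. The highest of them were Fcer1g and Tyrobp, with medians over tables of 424 and 461 FPKM in E11.5 S/G2/M cells and of 947 and 811 FPKM in E11.5 G1 cells. None was listed at 0 in a group except Siglec1 in E10.5 S/G2/M cells. The medians of their log2 fold changes were -1.54 between phases at E11.5, -0.69 between phases at E10.5, 2.07 with age in S/G2/M cells and 2.79 with age in G1 cells. The values of C3ar1 in the same order were -1.57, -0.98, 2.05 and 2.64, and those of C5ar1 were -1.73, -0.08, 1.14 and 2.78. The part of macrophage RNA in these differences was not tested. In such bulk samples, fewer cells of a type and less RNA per cell cannot be told apart.

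The endothelial markers had medians of -0.32 between phases at E11.5, -0.36 between phases at E10.5, 1.0 with age in S/G2/M cells and 0.86 with age in G1 cells, beside -0.34, -0.35, 1.26 and 1.25 for Cd93. All 12 were above 0 in every group, with Cdh5 the highest in each. With age, 4 rose in S/G2/M cells and 1, Pecam1, in G1 cells, against 273 of 12768 and 389 of 12953 among all tested genes. The CD31 gene Pecam1, a marker of the sort, had 73.2 FPKM at E11.5 and 29.7 FPKM at E10.5 in S/G2/M cells. The 12 haematopoietic cluster markers had medians of 0.68 between phases at E11.5 and 0.06 at E10.5. With age the medians were 1.37 in S/G2/M cells and 1.10 over the 11 tested in G1 cells. Of these markers, 6 rose with age in S/G2/M cells and 3 of the 11 in G1 cells. The counts over all tested genes were again 273 of 12768 and 389 of 12953. Between phases Hlf alone passed, higher in S/G2/M cells at E11.5, as did 17 of 12414 tested genes in that direction. The CD117 gene Kit, also used in the sort, had a median over tables of 28.9 FPKM in E11.5 S/G2/M cells, 16.9 FPKM in E11.5 G1 cells, 12.7 FPKM in E10.5 S/G2/M cells and 15.1 FPKM in E10.5 G1 cells. Granulocyte marker sums were 407 to 421 FPKM in E11.5 S/G2/M cells, 140.3 to 143 FPKM in E11.5 G1 cells, 62.5 to 63.6 FPKM in E10.5 S/G2/M cells and 21.3 to 22.3 FPKM in E10.5 G1 cells, with 4, 3, 5 and 7 of the 10 markers at 0 in those groups. Over the 3 or 4 tested markers above 0 in both groups, the granulocyte medians were 1.86 between phases at E11.5 and 1.34 at E10.5. With age they were 1.83 in S/G2/M cells and 2.77 in G1 cells. Mpo, the myeloperoxidase gene, made up most of each E11.5 sum, with medians over tables of 343 FPKM in E11.5 S/G2/M cells and 93.7 FPKM in E11.5 G1 cells. At E11.5, Mpo passed as higher in S/G2/M cells than in G1 cells (authors' deposited table, q = 0.0102). Mpo also rose with age in both phases. Prtn3 was also highest in E11.5 S/G2/M cells, with medians of 51.8 FPKM there and 13.2 FPKM in E11.5 G1 cells. So were Fcnb and Cebpe, both under 1 FPKM, while Elane was highest in E10.5 S/G2/M cells. S100a8, S100a9 and Csf3r were highest in E11.5 G1 cells, as C3ar1 was. S100a8 was listed at 0 in E11.5 S/G2/M cells and fell there against 13.1 FPKM in E11.5 G1 cells, and it was listed at 0 at E10.5. S100a9 was listed above 0 in E11.5 G1 cells alone, and Csf3r rose with age in G1 cells, with 16.8 FPKM at E11.5 and 1.49 FPKM at E10.5. Erythroid marker sums, 9 genes of which none was at 0, were 3106 to 3267 FPKM in E11.5 S/G2/M cells, 12176 to 12330 FPKM in E11.5 G1 cells, 19508 to 19748 FPKM in E10.5 S/G2/M cells and 14563 to 15403 FPKM in E10.5 G1 cells. Of 8 mesenchymal markers 4 fell with age in each phase, against 247 of 12768 tested genes in S/G2/M cells and 188 of 12953 in G1 cells. Of 6 neural markers 5 were lower in S/G2/M cells at E10.5 past the threshold, against 60 of 12984 tested genes. Of 6 hepatic markers, Trf alone exceeded 2 FPKM, and Alb stayed under 0.1 FPKM. The part of these cell types' RNA in the differences was not tested.

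**Figure D4:**
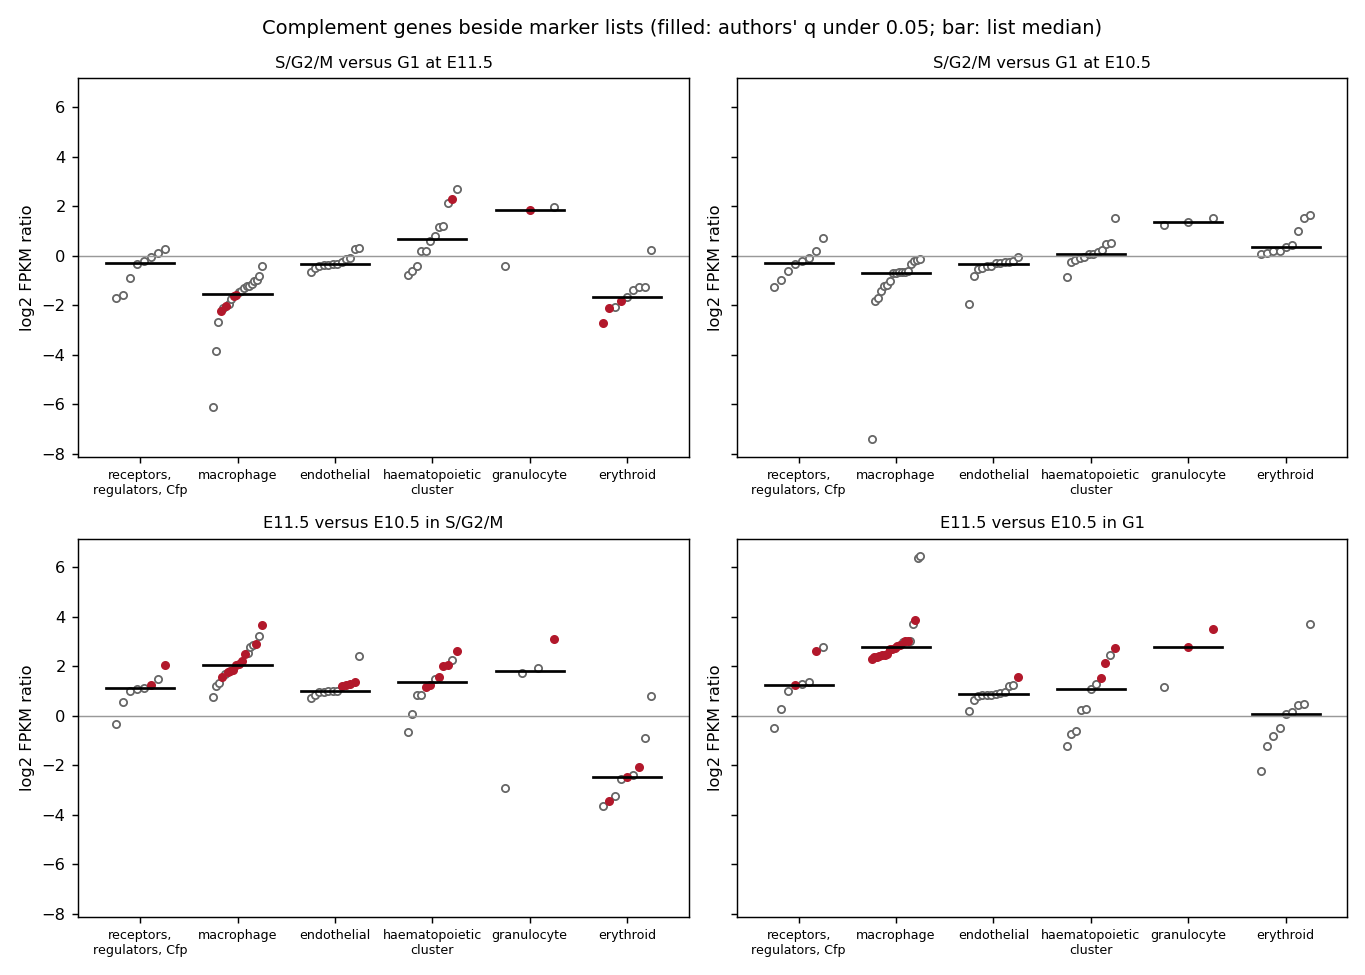
Log2 ratio of FPKM of the complement receptor, regulator and properdin genes and of 5 marker lists in the 4 comparisons, S/G2/M over G1 or E11.5 over E10.5, for tested genes above 0 in both groups; filled points passed at a q under 0.05 in the authors' deposited tables and bars are medians. Macrophage markers lie below 0 in both comparisons of phases and above 0 in both comparisons of age, and the complement genes lie on both sides of 0 in every comparison.

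Across 9700 genes of at least 5 FPKM in a group and above 0 in all 4, the genes nearest to C3ar1 in profile were Prkcb, Ly86, Cd53, Zbtb7b and Rassf5, with root mean square differences of 0.0921 to 0.155 in log2 FPKM over the 4 groups. Ly86, the second of them, had medians over tables of 86.8 FPKM in E11.5 S/G2/M cells, 213 FPKM in E11.5 G1 cells, 19.9 FPKM in E10.5 S/G2/M cells and 39.3 FPKM in E10.5 G1 cells. Nearest to C5ar1 were Dab2, Pld4, Fcgrt, Tcirg1 and Ctsc, with differences of 0.0287 to 0.111. Nearest to Cd93 were Flt1, Klhl4, Tmem176a, Itga6 and Plau, with differences of 0.0364 to 0.0615. Nearest to Cr1l were Tnk1, Tbc1d1, Mocs1, Tm7sf3 and Pqlc1, with differences of 0.0318 to 0.0705. Cd55, C5ar2 and C3 did not reach the minimum level. Among the pairs of the other 6 genes, Cd93 and Cfp differed least, by 0.216, followed by Cd93 and Cr1l with 0.356 and C3ar1 and C5ar1 with 0.367, and C3ar1 and Cd59a differed most, by 1.25. With 4 groups, likeness is a description of these values.

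**Figure D5:**
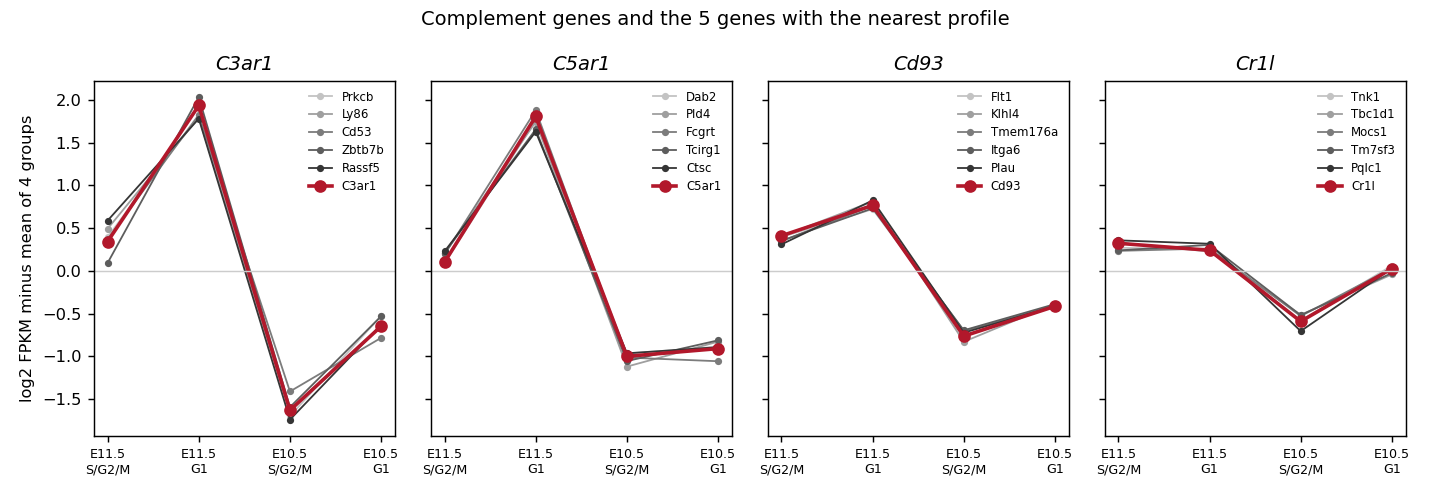
Log2 FPKM of 4 complement genes (red) and of the 5 genes nearest to each in profile (grey), each centred on its mean over the 4 groups; lines join the groups for display only. C3ar1 and C5ar1 peak in E11.5 G1 cells, Cd93 is higher at E11.5 in both phases, and Cr1l is lowest in E10.5 S/G2/M cells.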

How the data were processed

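RNA of 12 samples in 4 groups had been sequenced. The tools named, per the submitters' processing notes, are Cuffdiff, TopHat and CASAVA 1.4, beside the build mm10, without their roles, while the labels' protocols name bowtie 0.12.2 and mm8. Of 22542 symbols with a single row that were found in the mm10 annotation (GENCODE M21), 22425 overlapped the gene of that name, so coordinates are given as mm10, counted from 1. The authors deposited 6 tables of 24138 genes, each with 1 FPKM value for each of 2 groups and a p-value and q-value from their test. A group that the tables name with G2 was read as S/G2/M, the only other sorted group of its age. No source used here says how the 3 samples of a group were combined. No read totals or values of single samples are in these tables, so depth and precision are unknown and no SD is printed.

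Of several rows for a symbol the one with the highest value was kept, and each of the 9 genes had a single row. FPKM ratios of 2 groups, with no pseudocount added, gave the log2 fold changes. Where the planned tests needed values of single samples, the authors' calls were used in their place. A gene is said to have risen or fallen where the authors' deposited q-value, taken over all genes they tested, was under 0.05. The q-values differed by at most 5.27e-07 from a Benjamini-Hochberg adjustment of the deposited p-values.

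All 9 genes were named, with those of 47 other complement genes that passed, up to 4 of the highest genes of a marker list, and the 5 genes nearest in profile to a receptor or regulator. Siglec1, Kit, Alb, S100a8, S100a9 and other genes outside this rule were named after their values were seen. Nearness is the root mean square difference of log2 FPKM over the 4 groups after centring each gene, among genes of at least 5 FPKM in 1 group and above 0 in all 4. Genes and lists were chosen with earlier results of these data known. A further gene of the pathway is not reported here. Alternatives were other q thresholds, a minimum of 2-fold, of 1 FPKM or of 5 FPKM, all rows of a symbol, a pseudocount of 1 FPKM, median scaling and the deposited tables in the other order. The adjustment and the profile search were tested on simulated data. The work used matplotlib 3.10.9, pandas 2.3.3 and numpy 2.4.6 in Python 3.11.15.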

Additional observations from a re-analysis of the deposited data

How the results depend on the processing

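Of 90 log2 fold changes of the 9 genes recomputed with a pseudocount of 1 FPKM, with median scaling or from the tables in the other order, none reversed. A pseudocount cannot turn a direction. The pseudocount and the scaling, with 36 values each, left the q-values as deposited and so could not change a call. Of the values from the tables in the other order, 17 kept their call or, for C3, stayed untested, and 1 did not. The exception was C3ar1 between phases at E11.5, which passed in the table of the other order, so that 1 gene was called there and not 0. At a threshold of 0.085, up to which the authors marked genes as significant, 2 genes were called between phases at E11.5, C3ar1 and C5ar1. At a threshold of 0.01, 1 gene was called in each comparison of age, C3ar1, and not 2. Between phases no gene of the whole tables had a q-value under 0.01, the smallest being 0.0102 at E11.5 and 0.0101 at E10.5. A minimum of 2-fold, of 1 FPKM or of 5 FPKM and the use of all rows of a symbol changed no count. No paired analysis was possible because the deposited tables hold group values only, and for the same reason leaving out each replicate was not run. Depth is unknown, which limits what can be said of C3, C5ar2 and Cd55.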

Other observations

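The level of C5ar2 depended on which deposited table was read. In E11.5 S/G2/M cells it had 1.66 FPKM in one table of the phases and 0.706 FPKM in the other, and in E11.5 G1 cells 3.10 and 2.43 FPKM. Of 11543 genes of at least 1 FPKM in E11.5 S/G2/M cells, 84 (0.728%) moved by over 1.5-fold between these tables, and of 11803 such genes in E10.5 S/G2/M cells 0 did. The cause was not tested.

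C3ar1 and C5ar1 had like folds with age in G1 cells, 6.22-fold and 6.87-fold, at levels of 93.1 and 44.4 FPKM at E11.5. Their p-values in the authors' deposited table were 5e-05, the smallest the table holds, and 0.0819. Between phases at E11.5 their p-values were 0.0004 and 0.0005. The spread between samples behind these values is not in the tables used here.

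Fcna, a ficolin gene of the lectin route, had a median over tables of 0.361 FPKM in E11.5 S/G2/M cells, 9.46 FPKM in E11.5 G1 cells, 0.668 FPKM in E10.5 S/G2/M cells and 0.186 FPKM in E10.5 G1 cells. It was chosen after its values were seen, and it passed in neither comparison in which the authors tested it, both of which set E11.5 G1 cells against another group.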
